A study of Mus musculus with 140 samples.

Results

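Kap and 8 enzymes of the renal proximal tubule (Acsm2, Acsm3, Inmt, Acy3, Akr1c21, Miox, Nat8f1 and Prodh) were followed in septic mouse kidney, 9 genes of the 34255 in the deposited table. They were picked by gene symbol from earlier results on the same libraries, as enzymes that were lower after sepsis. The values that chose them were the differences between septic and sham-operated mice, most plainly at 24 and 72 h, so those differences are given below as a description, with no test. The label held for 8 of the 9 genes in whole kidney. Prodh was higher, not lower, in septic whole kidney at 24 and 72 h, and it is described here as a member by rule only.

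RNA came from male wild-type mice of the strain C57BL6/OlaHsd, with 4 mice in each of 7 groups. The groups were healthy mice at 0 h, mice at 4, 24 or 72 h after a sham operation, and mice at 4, 24 or 72 h after CLP (cecal ligation and puncture, which opens the gut wall and causes abdominal sepsis). Each mouse gave 5 libraries: peritubular capillaries, post-capillary venules, arterioles and glomeruli, all taken by laser microdissection, and whole kidney, which was not microdissected. Sequencing was by the QuantSeq method of Lexogen, which reads the 3′ end of each polyadenylated transcript. All groups shared sex, strain and genotype, and age is not given in the labels.

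The proximal tubule reabsorbs most of what the glomerulus filters, and it is also a chemical organ that conjugates, oxidises and excretes small molecules. Kap encodes the kidney androgen-regulated protein, a small secreted protein and one of the most abundant transcripts of the male mouse kidney. Acsm2 and Acsm3 are mitochondrial medium-chain acyl-CoA synthetases, which activate fatty and aromatic acids for oxidation or glycine conjugation. Inmt transfers methyl groups to indolethylamines and other small amines. Nat8f1 belongs to the Nat8 family of acetyltransferases, whose founding member makes mercapturates (the acetylated cysteine conjugates in which toxins leave in urine), and Acy3, aminoacylase 3, removes the acetyl group from mercapturates. Akr1c21 is a hydroxysteroid dehydrogenase, Miox opens the ring of myo-inositol to give glucuronate and is largely confined to kidney, and Prodh, proline dehydrogenase, begins the breakdown of proline in mitochondria.

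On build GRCm38 the members were Kap (ENSMUSG00000032758, chromosome 6, 133849851 to 133853762, minus strand), Acsm2 (ENSMUSG00000030945, chromosome 7, 119554340 to 119600690, plus strand), Acsm3 (ENSMUSG00000030935, chromosome 7, 119760923 to 119787513, plus strand), Inmt (ENSMUSG00000003477, chromosome 6, 55170626 to 55175043, minus strand) and Nat8f1 (ENSMUSG00000057103, chromosome 6, 85910154 to 85915687, minus strand). The other 4 were Acy3 (ENSMUSG00000024866, chromosome 19, 3986570 to 3990007, plus strand), Akr1c21 (ENSMUSG00000021207, chromosome 13, 4574075 to 4586541, plus strand), Miox (ENSMUSG00000022613, chromosome 15, 89334398 to 89337015, plus strand) and Prodh (ENSMUSG00000003526, chromosome 16, 18060357 to 18090203, minus strand). Since reads came from 3′ ends, the last 300 bases of each transcript were compared with all other annotated transcripts. Nat8f1 shared 176 aligned bases at 92% identity with the pseudogene Nat8b-ps, and Acy3 shared 58 bases with Gm48931 without a mismatch, so counts of these 2 genes are uncertain to the extent that reads could be split or dropped there. No similar stretch was found for the 7 other genes.

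The 5′ flanking sequences of 4 members are printed because they carry the motifs that recurred in the set. All come from RefSeq on build GRCm38.p6, end before the more upstream of the RefSeq and GENCODE starts, and have motif matches in capitals. The windows searched ran from 250 bases before to 50 after each start, on both strands, and 9 of 9 members matched (10 windows of 32851 in all). ATTAAC is the reverse complement of GTTAAT, the core of the element of HNF1 (a transcription factor of the proximal tubule), TATAAA is a TATA box and AGGTCA is the core of many nuclear receptor elements. The stretches are chr7:119554090-119554339 (plus strand) for Acsm2, chr13:4573825-4574074 (plus) for Akr1c21, chr15:89334223-89334397 (plus) for Miox and chr6:55175044-55175240 (minus) for Inmt.
Acsm2: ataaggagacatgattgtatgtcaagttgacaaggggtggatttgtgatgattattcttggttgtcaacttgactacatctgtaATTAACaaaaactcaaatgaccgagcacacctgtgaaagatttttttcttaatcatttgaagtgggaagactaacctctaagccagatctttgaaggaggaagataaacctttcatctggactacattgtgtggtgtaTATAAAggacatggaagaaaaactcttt
Akr1c21: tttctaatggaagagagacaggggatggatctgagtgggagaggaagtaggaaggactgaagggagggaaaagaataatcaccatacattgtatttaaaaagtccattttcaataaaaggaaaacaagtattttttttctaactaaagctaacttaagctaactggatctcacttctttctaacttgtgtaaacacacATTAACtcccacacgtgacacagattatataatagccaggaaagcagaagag
Miox: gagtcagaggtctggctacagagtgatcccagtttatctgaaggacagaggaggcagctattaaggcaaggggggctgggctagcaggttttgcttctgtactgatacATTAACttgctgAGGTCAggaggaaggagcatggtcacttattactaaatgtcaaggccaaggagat
Inmt: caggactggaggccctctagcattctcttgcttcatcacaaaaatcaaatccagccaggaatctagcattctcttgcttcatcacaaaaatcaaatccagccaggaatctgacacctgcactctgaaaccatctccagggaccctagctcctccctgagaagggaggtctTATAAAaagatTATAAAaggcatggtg

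GTTAAT on either strand was present in 3 members (Acsm2, Akr1c21 and Miox) and in 7.1% of all windows. TATAAA was present in 5 members (Kap, Acsm2, Inmt, Acy3 and Miox, in Miox between its GENCODE and RefSeq starts and so not in the printed stretch) and in 13.6% of all windows, and Inmt held it 2 times, 80 and 69 bases before its RefSeq start. TGTTCT, the core shared by elements of several steroid receptors, was found only in Acsm2, inside the transcribed part, against 19% of all windows. The full element of those receptors was found in none of the members and in 0.00913% of windows, and CAAAGTCCA, an HNF4 element, in none and 0.475%. AGGTCA was in Miox and in 16.3% of windows. A match is a stretch of letters and not a measured binding site, and a missing match says only that these letters are not in this window.

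The 140 libraries held 4.24 to 18.3 M counts. Microdissected libraries of the 24 and 72 h groups detected fewer genes than the healthy and 4 h ones, in sham as in CLP mice. The gap was widest in peritubular capillaries of CLP mice at 72 h, with 2949 to 5595 genes against 7137 to 9816 in sham mice at 72 h. Cell type markers followed the labels in healthy glomeruli (5 podocyte genes summing to 6479 to 7457 CPM, counts scaled to library size) and arterioles (4 smooth muscle genes, 12286 to 31719.9). They did so less plainly in peritubular capillaries, where 8 endothelial genes summed to 482 to 1654 CPM, against 458 to 529 in whole kidney and 4227 to 5760.03 in glomeruli. Proximal tubule markers are therefore given beside the members.

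In healthy kidney the mean level was highest in the peritubular capillary libraries for 8 of the 9 genes, and in whole kidney for Acsm3. It was lowest in arterioles or glomeruli for all 9. Kap had 51861, 57672, 82452 and 93762 CPM in capillaries of the 4 healthy mice and 27837, 28692, 28772 and 29715 in their whole kidneys, followed by 15140.2, 16463, 17306 and 19270.3 in venules, 5770.5, 6357, 6399.6 and 12745 in arterioles and 2847, 4182, 4309.6 and 4525 in glomeruli. None of the 5 ranges overlapped another, and each step in this order passed the test (edgeR quasi-likelihood test with the mouse as a block, adjusted over 13813 genes). The smallest step, whole kidney over venules, was 0.75 ± 0.17 on the log2 scale (adjusted p = 0.0147), arterioles over glomeruli was 0.94 ± 0.17 (adjusted p = 0.000114), and whole kidney minus capillaries was −1.28 ± 0.17 (adjusted p = 2.09e-06). These are bulk samples, in which fewer cells of a type and less RNA per cell cannot be told apart.

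Nat8f1 had the same leading pair, with 938, 1379.8, 1411 and 2544 CPM in capillaries and 334, 371, 386 and 445 in whole kidney, a whole kidney minus capillary difference of −2.01 ± 0.44 (log2, adjusted p = 0.0223). For the other 7 genes the difference between whole kidney and capillaries did not pass this test, Acsm2 coming nearest with −0.90 ± 0.22 (adjusted p = 0.0661). Every capillary value still lay above every whole kidney value for Acsm2, Akr1c21, Miox and Prodh. The values overlapped for Acsm3, Inmt and Acy3. Acsm3 was nearly missing from arterioles, with 1.01, 2.09, 2.13 and 3.75 CPM against 115, 168, 171 and 176 in whole kidney (6.22 ± 1.20, adjusted p = 0.000209). Prodh was as low in arterioles (1.69, 1.96, 2.13 and 2.9 CPM) but stood higher in glomeruli (7.17, 39.7, 77.3 and 115), and it was the only member whose arteriole level passed as lower than the glomerular one (−4.65 ± 0.90, adjusted p = 0.000492).

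The other members ran as follows. Acsm2 had 5787 to 9842 CPM in capillaries, 3871 to 4951 in whole kidney and 547 to 1307 in glomeruli, and Acy3 2859.7 to 7025, 2787 to 3209 and 394 to 829 in the same order. Inmt had 658 to 1937, 610.4 to 954 and 86.7 to 131. These 3 genes were all lowest in glomeruli. Akr1c21 (1347 to 2207, 1065 to 1339.8 and 312 to 513) and Miox (1666 to 3529, 1189 to 1567 and 377 to 904) had the narrowest spread between compartments.

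Over the 10 pairs of compartments 56 of 90 member differences passed. Capillaries exceeded arterioles for 9 of 9 members (6.4% of all genes tested were called in that direction) and glomeruli for 8 (3.29%), Prodh being the exception. Whole kidney exceeded arterioles for 9 (8.18%) and glomeruli for 7 (2.07%), all but Nat8f1 and Prodh. Venules exceeded arterioles for 8 (3.35%), all but Inmt, and glomeruli for 7 (1.3%), all but Acsm3 and Prodh. Capillaries exceeded venules for Kap, Acsm2 and Acy3 (0.261%). Whole kidney was below capillaries for 2 (0.145%) and above venules for Kap alone (0.0217%). Between arterioles and glomeruli Kap passed as higher in arterioles (1.56%) and Prodh as lower (1.53%).

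The summed level of 18 proximal tubule markers moved with the members: its median was 24549 CPM in capillaries, 13066 in venules, 12763 in whole kidney, 4305 in arterioles and 3505 in glomeruli. Its part in the members' levels was not tested. Being known as tubular enzymes was also part of how the genes were picked.

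**Figure D1:**
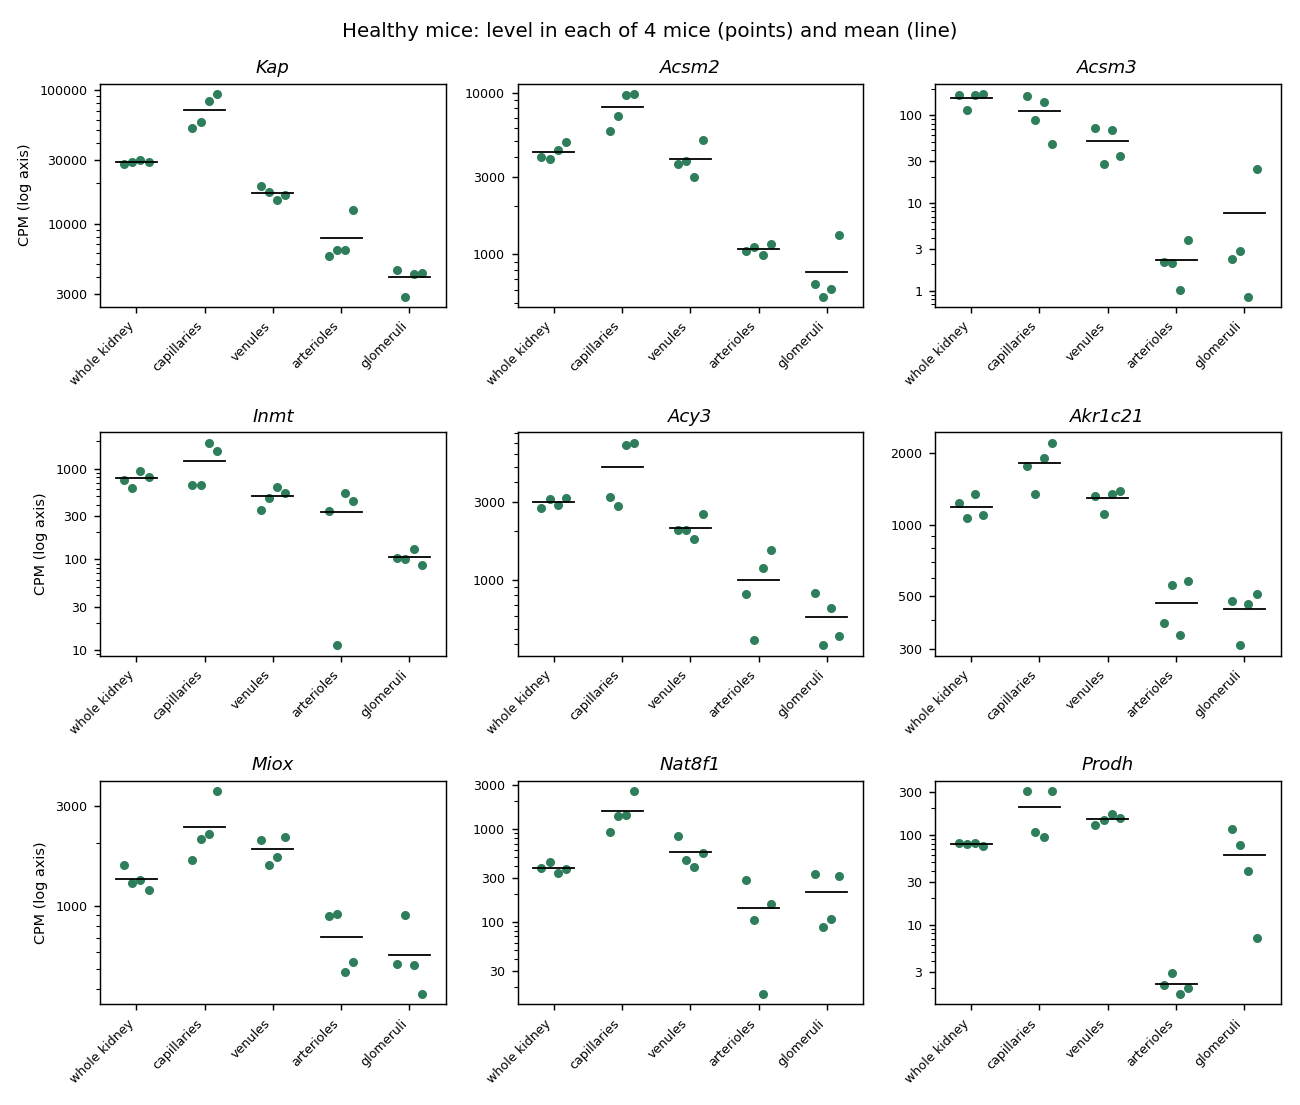
Level of each of the 9 genes (CPM, log axis) in the 5 compartments of healthy mice, with 1 point per mouse and a line at the mean of 4. Kap, Acsm2 and Nat8f1 stand highest in peritubular capillaries, and Acsm3 and Prodh fall to a few CPM in arterioles.

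No difference of these genes was detected at 4 h, after either operation. At 4 h Kap in whole kidney had 30762, 31419.8, 31472 and 43288 CPM after CLP, 29748, 32125, 32801 and 34664 after sham surgery and 32294, 32593, 32720.2 and 33152 in healthy mice. The sham range held all 4 healthy mice, and 3 of 4 CLP mice lay in it below the lowest healthy mouse while the other was the highest of all. The fitted CLP minus sham difference was 0.08 ± 0.12 (log2 ± SE). Over the 9 genes in whole kidney it ran from −0.18 for Inmt to 0.28 for Acy3, with SEs of 0.12 to 0.28. None of the 45 differences over the 5 compartments passed with edgeR (in whole kidney 2.24% of all genes did, in capillaries 0%, venules 0%, arterioles 0.00821% and glomeruli 0.11%), none had an unadjusted p under 0.05, and DESeq2 gave 0 by either count. With edgeR on only the groups compared, 0 passed and 3 had an unadjusted p under 0.05. Prodh in glomeruli was the one member whose CLP and sham values did not overlap at 4 h, with 106, 116, 155 and 167 CPM against 46.7, 54.4, 65.3 and 96.3 (1.05 ± 0.66, edgeR adjusted p = 1). That is 1 of 45, while 4.66% of all gene and compartment pairs tested did not overlap.

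Sham mice at 4 h, the same animals that served as controls above, were also compared with healthy mice. None of 45 member differences passed or had an unadjusted p under 0.05 with edgeR (background in whole kidney 0.937%, capillaries 0%, venules 0%, arterioles 0%, glomeruli 0.00686%), and DESeq2 called 0, with 1 unadjusted p under 0.05. With edgeR on only the groups compared, 0 passed and 7 had an unadjusted p under 0.05. In 3 of 45 cases the values did not overlap, against 3.92% of all gene and compartment pairs tested: Prodh in venules was higher after sham surgery (214 to 345 against 134 to 183 CPM), and Akr1c21 (148 to 228 against 352 to 595) and Miox (167 to 461 against 496 to 876) in arterioles were lower. Proximal tubule markers in arterioles summed to 1633 to 2803 CPM in these sham mice and 3614 to 6005 in healthy ones. Their part in the 2 lower values was not tested.

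At 24 and 72 h whole kidney of CLP mice held less of 8 of the 9 transcripts at 1 time or both. By the same edgeR fit 7 members were called lower at 24 h, where 2.24% of all genes were, and Prodh was called higher (3.04%). At 72 h 6 members were called lower (2.15%) and none higher (1.74%). Because these contrasts chose the genes, nothing is read from the counts. The same holds for groups said below not to overlap at 24 or 72 h. The share of all genes without overlap was taken only at 4 h. The members' median log2 difference was −1.20 at 24 h and −0.92 at 72 h, beside 0.02 and 0.03 over all genes. Members just inside and outside the calling threshold of adjusted p under 0.05 were Miox (−0.65) and Prodh (0.62) at 72 h.

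**Figure D2:**
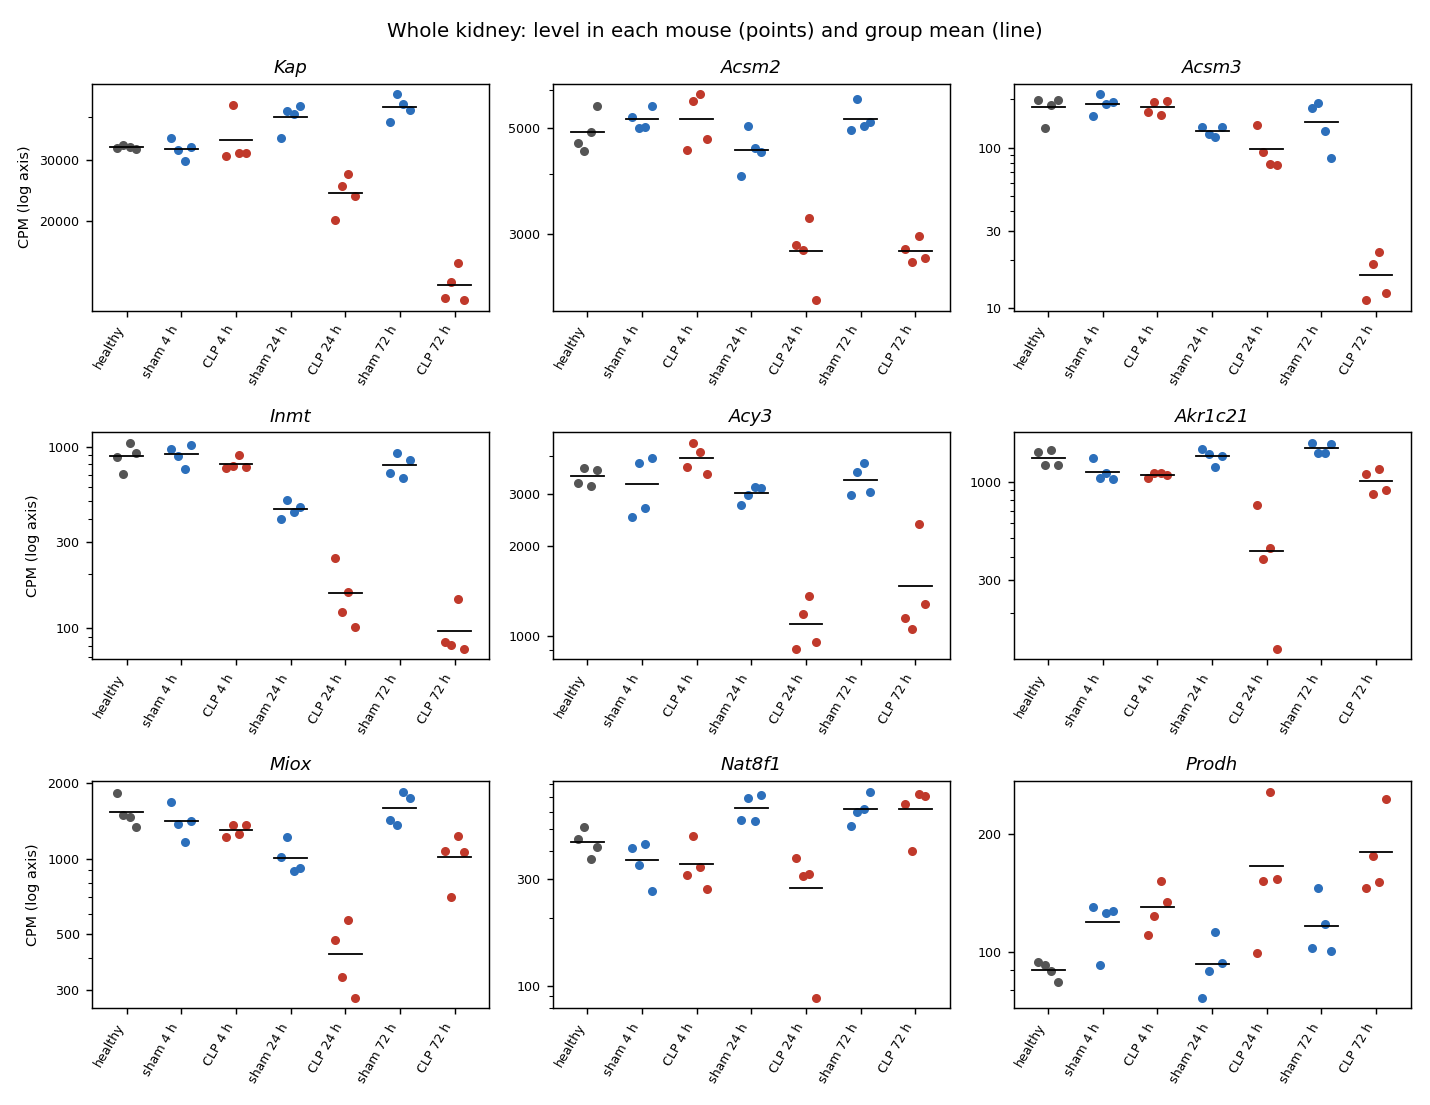
Level of each of the 9 genes in whole kidney (CPM, log axis) in every mouse of the 7 groups, with a line at the group mean (grey healthy, blue sham, red CLP). The 4 CLP mice at 72 h lie below the 4 sham mice at 72 h for Kap, Acsm2, Acsm3, Inmt, Acy3, Akr1c21 and Miox, while 3 of 4 Prodh points lie above them.

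Kap, the androgen-regulated protein, was lower at each later time. Whole kidney of CLP mice had 20116, 23681, 25262 and 27303 CPM at 24 h and 11849, 12024, 13348 and 15142 at 72 h. Sham mice had 34689, 40754, 41587 and 42986 and 38507, 41681, 43525 and 46489. The groups did not overlap at either time, and every CLP mouse at 72 h lay below every CLP mouse at 24 h. The fitted differences were −0.73 ± 0.12 and −1.70 ± 0.12 (log2), that is 1.66-fold and 3.25-fold lower than sham.

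The 2 acyl-CoA synthetases, which lie near each other on chromosome 7, differed in timing. Acsm2 had 2181, 2782, 2846 and 3236 CPM in CLP mice at 24 h and 2617, 2669, 2793 and 2976 at 72 h, and sham mice had 3961, 4457, 4545 and 5036 and 4938, 5031, 5145 and 5735. Its 2 CLP ranges lay on top of each other, at −0.70 ± 0.12 and −0.92 ± 0.12 (log2) relative to sham. Acsm3 had 77.5, 79.1, 94.2 and 139.5 CPM in CLP mice at 24 h, overlapping the sham values of 117, 121, 134 and 135 (−0.38 ± 0.21). At 72 h it had 11.1, 12.4, 18.7 and 22.2 against 86.2, 126, 178 and 191, a difference of −3.17 ± 0.24, or 8.97-fold. The highest CLP mouse at 72 h was then well below the lowest sham mouse.

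Inmt, the amine methyltransferase, was low early and lower late. It had 101, 122, 158 and 245 CPM in CLP mice at 24 h and 76.95, 80.9, 84.3 and 146 at 72 h, against 398, 434, 468 and 507 and 669.7, 712, 844 and 927 in sham mice. The groups did not overlap at either time, with differences of −1.53 ± 0.21 and −3.02 ± 0.22 (2.88-fold and 8.12-fold). Sham mice at 24 h themselves lay below all healthy mice (705 to 1050.4 CPM), so the difference at 24 h is taken from a sham level under the healthy one. Sham mice at 72 h, which were other animals, lay in the healthy range or close to it. Miox showed a like dip in sham mice at 24 h (890.1 to 1215 against 1335 to 1834 CPM in healthy mice), while Acsm3 overlapped (117 to 135 against 133 to 199.8). Acy3 in sham mice at 24 h lay just below (2742 to 3164 against 3174 to 3647). Other sham levels lay above all healthy mice. They were Kap at 24 h (34689 to 42986 against 32294 to 33152) and 72 h (38507 to 46489). Nat8f1 was so at 24 h (544 to 710 against 368 to 514) and 72 h (519 to 737). Prodh was so at 72 h (101 to 146 against 83.9 to 94.1). The CLP differences of these genes are taken from those sham levels. These comparisons with healthy mice were not among the tests.

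Of the 2 mercapturate enzymes, Acy3, which deacetylates, stayed low, and Nat8f1, of the acetylating family, returned. Acy3 had 907, 955, 1185 and 1369 CPM in CLP mice at 24 h against 2742, 2966, 3143 and 3164 in sham mice (−1.44 ± 0.19). At 72 h it had 1062, 1153, 1284 and 2378 against 2962, 3043, 3556 and 3787 (−1.18 ± 0.19), with 1 CLP mouse apart from the other 3. Nat8f1 had 88.3, 311, 317 and 374 against 544, 552, 691 and 710.5 at 24 h (−1.20 ± 0.28), and the lowest mouse had a level well below the other CLP mice. At 72 h its values of 398, 649.9, 703 and 718 in CLP mice lay across the sham values of 519, 595, 618 and 737 (0.00 ± 0.28).

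Akr1c21 and Miox also had their lowest levels at 24 h. Akr1c21, the steroid dehydrogenase, had 129, 387, 445 and 753 CPM in CLP mice at 24 h, spread widely below the sham values of 1203, 1376, 1400.00 and 1497 (−1.68 ± 0.27, 3.19-fold). At 72 h the CLP values of 861, 898, 1102 and 1167 were nearer to the sham values of 1421, 1425, 1582 and 1609, still with no overlap (−0.58 ± 0.27). Miox, the inositol oxygenase, had 278, 337, 475 and 568 at 24 h against 890.1, 921, 1012 and 1215 (−1.28 ± 0.18), and 704, 1059, 1074 and 1234 at 72 h against 1364, 1428, 1751 and 1851 (−0.65 ± 0.18). Without the library of CLP mouse 2 at 72 h the latter difference was −0.52 and was no longer called, and it was likewise not called without CLP mouse 4 or sham mice 3 or 4.

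Prodh, the proline dehydrogenase, moved the other way. CLP mice had 99.1, 151, 154 and 256 CPM at 24 h and 145, 150.4, 176 and 245 at 72 h, and sham mice had 76.2, 89.3, 93.8 and 113 and 101, 102, 117 and 146. At each time 3 of 4 CLP mice were above the highest sham mouse, and the lowest was not. The differences were 0.83 ± 0.20 and 0.62 ± 0.20 (log2), 1.77-fold and 1.54-fold higher. The highest mouse at 24 h weighed on this value, which was 0.53 and no longer called without it. The sum of 5 leukocyte markers was also higher at 24 h, with 227 to 267 CPM in CLP and 109 to 173 in sham mice. At 72 h it was 514 to 733 against 111 to 149. Of these markers 3 were called higher and 1 lower at 24 h, and 4 higher and 0 lower at 72 h. Their part in the Prodh level was not tested.

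**Figure D3:**
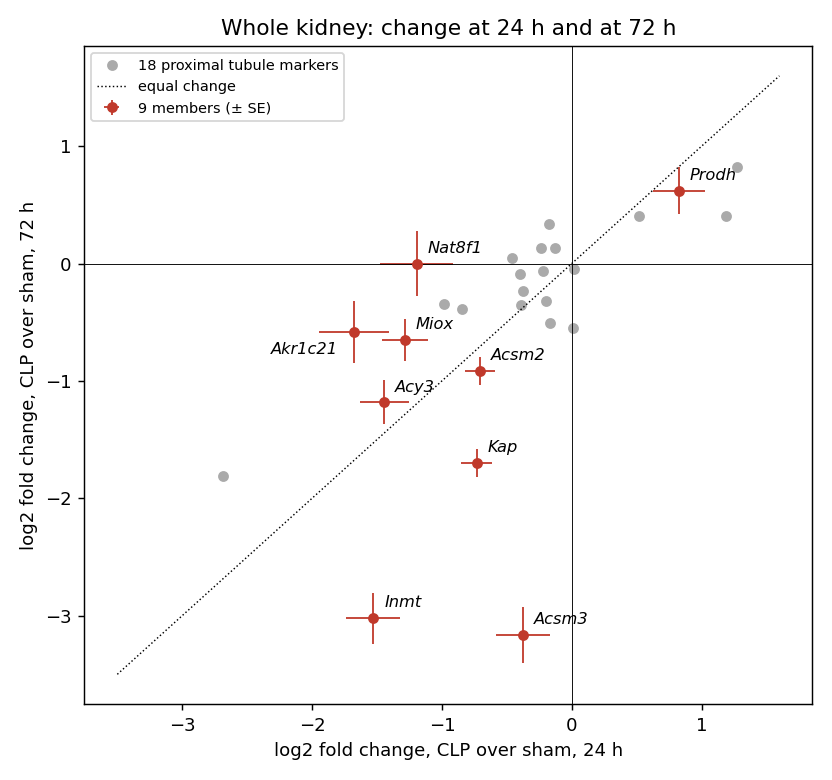
CLP over sham log2 fold change in whole kidney at 24 h (x axis) and at 72 h (y axis) for the 9 genes (red, ± SE) and 18 proximal tubule markers (grey), with a dotted line of equal change. Kap, Inmt and Acsm3 lie below the line, Akr1c21, Miox and Nat8f1 above it, and Prodh in the upper right.

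Proximal tubule markers in whole kidney had a median log2 difference of −0.21 at 24 h and −0.08 at 72 h, against −1.20 and −0.92 for the members. The members were chosen by these contrasts, so nothing is read from that gap. Of 18 markers, 13 were below 0 at 24 h and 11 at 72 h. At each time 3 were called lower (2.24% and 2.15% of all genes were) and 1 higher (3.04% and 1.74%). Slc7a13, a transporter of the last segment of the proximal tubule, was lower at both (−2.69 ± 0.30 and −1.81 ± 0.29). Slc34a1, a phosphate transporter, and Slc22a8, an organic anion transporter, were lower at 24 h (−0.99 ± 0.16 and −0.84 ± 0.24). Slc22a6, also an organic anion transporter, and Slc27a2, a fatty acid transporter, were lower at 72 h (−0.55 ± 0.15 and −0.51 ± 0.11). Slc13a1, a sulfate transporter, was higher at both (1.27 ± 0.16 and 0.82 ± 0.16). The summed level at 24 h was 10312 to 22153 CPM after CLP and 17229 to 19510.1 after sham surgery, and 12850.00 to 16851 and 16668 to 17982 at 72 h, with overlap at both times.

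The members were also expressed as a percentage of this sum. At 72 h Kap stood at 87.6% ± 12.2 of the marker sum in CLP mice and 244% ± 14.8 in sham mice (SD, n = 4 each). Acsm3 was 7.74-fold and Inmt 7.07-fold lower by this ratio, Acy3 1.99-fold and Acsm2 1.62-fold, none of them overlapping. Prodh was higher by the ratio in every CLP mouse at 72 h. At 24 h the ratio was 3.02-fold lower for Akr1c21, 2.54-fold for Inmt, 2.22-fold for Acy3, 2.1-fold for Miox and 2.08-fold for Nat8f1, all without overlap, while Kap (1.33-fold) and Acsm3 (1.11-fold) overlapped. At 4 h, where the ratio could be tested, none of 9 members had an exact permutation p under 0.05 (two-sided, 4 against 4, smallest possible p = 0.0286), and the smallest Benjamini-Hochberg value was 0.171.

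Other cell types and injury had these values in the same libraries. In whole kidney the 5 tubular injury markers summed to 584 to 1756 CPM in CLP mice at 24 h against 149.5 to 233 in sham mice, and to 261 to 416 against 150.2 to 206 at 72 h. Endothelial markers had 568 to 757 and 559 to 611 CPM at 72 h, and markers of the loop, distal tubule and collecting duct 4682 to 7099 and 5011 to 5420.2. The 3 erythrocyte genes summed to 955 to 1102 CPM after CLP at 72 h against 1784 to 2542, and 2 of the 3 were called lower. Their part in the members' levels was not tested. No marker list had a gene at 0 in all whole kidney libraries of a group.

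Genes of the same pathways, from lists drawn up with earlier results of these data known, were lower for some lists and not for others. Of 4 measured genes of glycine conjugation, 4 passed as lower at 24 h with edgeR: Acsm1 and Acsm5, further medium-chain synthetases (−0.76 ± 0.17 and −0.54 ± 0.16, adjusted p = 0.00334 and 0.0319), and Glyat and Keg1, of the glycine acyltransferase family (−0.47 ± 0.12 and −0.93 ± 0.27, adjusted p = 0.0202 and 0.0423). At 72 h only Acsm1 passed (−0.88 ± 0.17, adjusted p = 0.000847). The list's median was −0.65 at 24 h and −0.35 at 72 h, against 0.02 and 0.03 for all genes.

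Of 11 mercapturate genes, Cndp2, a dipeptidase, was lower at both times (−1.76 ± 0.18 and −1.84 ± 0.18, adjusted p = 1.24e-07 and 2.3e-08) and Nat8f6, a relative of Nat8f1, at 24 h (−0.96 ± 0.26, adjusted p = 0.024). The other 9 passed at neither time, among them Nat8 itself (0.34 ± 0.18 and −0.28 ± 0.18). Of the 6 genes tied to androgen action in kidney, as Kap is, 3 passed as lower at each time. Odc1, the rate-limiting enzyme of polyamine synthesis, differed by −2.15 ± 0.27 and −1.12 ± 0.26, Cyp7b1, an oxysterol hydroxylase, by −0.95 ± 0.18 and −1.23 ± 0.18, and Slco1a1, an organic anion transporter, by −1.19 ± 0.26 and −3.03 ± 0.29.

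Of 5 measured Akr1c genes none passed at 24 h (edgeR, smallest adjusted p = 0.0816), and Akr1c14 was lower at 72 h (−1.77 ± 0.35, adjusted p = 0.00273). In proline metabolism 1 of 4 measured genes passed, Aldh4a1, which acts after Prodh, and it was lower at 24 h (−0.70 ± 0.14, adjusted p = 0.00154) while Prodh was higher. Prodh2 had 0.20 ± 0.18 and 0.55 ± 0.18 and did not pass. In inositol and glucuronate handling 1 of 7 passed, Slc5a11, an inositol transporter, lower at 24 h (−0.90 ± 0.19, adjusted p = 0.00202). The other aminoacylases, Acy1 (−0.44 ± 0.19 and −0.42 ± 0.19) and Aspa (−0.38 ± 0.14 and −0.15 ± 0.14), did not pass.

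In the microdissected compartments most of these genes were lower after CLP, with wider error. In venules 4 members were called lower at 24 h (Inmt, Acy3, Akr1c21 and Miox), against 0.0591% of all genes, and 4 at 72 h (Kap, Acsm3, Inmt and Acy3), against 0.0296%. Akr1c21 in venules at 24 h had 109, 254, 383 and 487 CPM after CLP and 1236, 1378, 1452 and 2188 after sham surgery (−2.34 ± 0.29). Acy3 had 349.9, 517, 529 and 860.2 against 1362, 2048, 2113 and 3312 (−1.97 ± 0.25). Both groups were far apart for these 2 genes, as in whole kidney. Inmt had 51.3, 56.04, 64.5 and 89.7 against 111, 252, 333 and 428 at 24 h (−2.10 ± 0.40) and 43.03, 58.4, 86.04 and 128 against 194, 439, 517 and 619 at 72 h (−2.49 ± 0.41). Each sham mouse was above each CLP mouse in both. Kap in venules at 72 h had 4771, 5634, 8084 and 9994 against 13435, 17516, 21667 and 27775 (−1.50 ± 0.27). Proximal tubule markers in venules summed to 8482 to 11283 CPM after CLP and 12621 to 14930.5 after sham surgery at 24 h, without overlap, and to 12086 to 15255 and 14401 to 17923 at 72 h. Their part was not tested. These counts leaned on single mice: at 24 h they fell to 2 without sham mouse 3 or CLP mice 2 or 3, and at 72 h to 1 without sham mouse 1 and 2 without sham mice 2 or 3 or CLP mouse 1.

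The other members in venules had smaller differences. Acsm2 at 24 h had 1648, 1684, 1715 and 1735 CPM in CLP mice against 2176, 3042, 3466 and 4031 (−0.91 ± 0.21), and Miox 475, 537, 607 and 613 against 963, 1104, 1312 and 1336 (−1.08 ± 0.23). Nat8f1 had 285, 299.6, 315 and 438 against 524, 559, 799 and 880.03 (−1.04 ± 0.32). The groups did not overlap for these 3 genes at 24 h. At 72 h all 3 overlapped, with −0.74 ± 0.21, −0.52 ± 0.23 and −0.30 ± 0.31, as did Akr1c21 (−0.57 ± 0.28) and Prodh (0.31 ± 0.43). Acsm3 overlapped at 24 h, with 2.56, 15.6, 15.97 and 31.5 against 14.1, 17.1, 22.9 and 24.9 CPM.

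In peritubular capillaries no member was called at 24 h by edgeR (0.017% of all genes were called lower). DESeq2 called 1. Miox had 184, 214, 254 and 475 CPM in CLP mice against 686, 773, 1168 and 1745 in sham mice (−1.96 ± 0.48), and Inmt 46.3, 69.2, 122 and 310.3 against 324, 491, 539 and 1308 (−2.28 ± 0.65), both without overlap. Akr1c21 was also apart, at 341, 471, 524 and 940.3 against 1008, 1231, 1469 and 1715 (−1.25 ± 0.49), and so was Acsm2 (−1.08 ± 0.27). Kap (−0.57 ± 0.27), Acy3 (−1.14 ± 0.40), Nat8f1 (−1.34 ± 0.50), Acsm3 and Prodh overlapped. Without CLP mouse 1 the count was 1. At 72 h 6 members were called lower, but so were 20.5% of all genes. Miox, the weakest of the 6, was called in none of the 6 other settings of scaling, filter, tool or design. The median over all genes was −1.28. The members' median there was −1.41, close to that shift. Relative to it, Acy3 (−3.15 ± 0.43, 73.3, 213, 449 and 811 against 2857, 3105, 3156 and 4651 CPM) and Inmt (−3.30 ± 0.67, 1.96, 88.4, 106 and 175 against 583, 879, 1075 and 1116) were lower still. Kap (−1.41 ± 0.27) and Miox (−1.26 ± 0.47) were near it. With size factors of the RLE method the median over all genes was −0.90, Acy3 had −2.70, Inmt −2.82 and Kap −0.96, and the signs of Akr1c21 (−0.34 to 0.16) and Prodh (−0.40 to 0.06) turned. Proximal tubule markers in these libraries summed to 8715 to 17296 CPM after CLP and 18504 to 26080.00 after sham surgery at 24 h, and to 11417 to 13169.5 and 21908 to 25321 at 72 h, without overlap at either time. The 8 endothelial markers, which define the labelled compartment, summed to 3.67 to 331 in CLP mice at 72 h, with 1 of them at 0 in all 4, against 503 to 922 in sham mice. The part of either in the members' levels was not tested.

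Acsm3 was at 0 counts in all 4 CLP libraries at 72 h in capillaries, venules, arterioles and glomeruli alike. In sham mice at 72 h it had 20.5, 20.9, 158 and 159.96 CPM in capillaries and 2.86, 12.6, 18.5 and 137 in venules. Against a floor of 3 counts per library this is at least 283-fold lower in capillaries and at least 130.1-fold lower in venules, which covers counting error alone, and the sham mean in venules rests on 1 mouse. In arterioles and glomeruli sham mice were themselves at or near 0 in part (0, 0, 0 and 58.7 and 0, 0.583, 19.96 and 61.98 CPM). In whole kidney, where libraries detect more genes, Acsm3 kept 11.1, 12.4, 18.7 and 22.2 CPM.

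In arterioles 1 member was called lower at 24 h, Nat8f1 (0.0164% of all genes were), which had 0, 0, 0 and 0.0664 CPM in CLP mice against 25.1, 116, 145 and 235 in sham mice. No member was called in arterioles at 72 h (0%) or in glomeruli at 24 h (0.0411%) and 72 h (0.0206%). DESeq2 called 3, 2 and 1 members lower in those comparisons, where it called 1105, 593 and 351 of all genes lower. Kap in glomeruli had 550.4, 823, 4057 and 5113 CPM in CLP mice against 5914, 6241, 7802 and 10350.3 in sham mice at 24 h (−1.52 ± 0.67), and 590.5, 962, 2422 and 2443 against 1403, 1637, 7369 and 8389 at 72 h (−1.55 ± 0.67), apart at 24 h and overlapping at 72 h. Akr1c21 in glomeruli had 24.5, 35.04, 77.7 and 296 CPM against 385, 718, 815 and 948 at 24 h (−2.72 ± 0.71), with no overlap. Proximal tubule markers in glomeruli summed to 2118 to 5991 in CLP and 5191 to 9048 in sham mice at 24 h, and in arterioles to 109.7 to 1735 and 1423 to 3810.3. Their part was not tested. Prodh, higher in whole kidney, had −0.22 ± 1.07, −0.19 ± 0.43 and 0.99 ± 0.66 in capillaries, venules and glomeruli at 24 h, each within 2 SE of 0. In arterioles it had 0, 0.0636, 31.5 and 90.1 CPM in CLP mice against 0, 0, 0.432 and 2.94 in sham mice (5.15 ± 2.91), where 2 CLP mice were high and the others at or near 0.

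**Figure D4:**
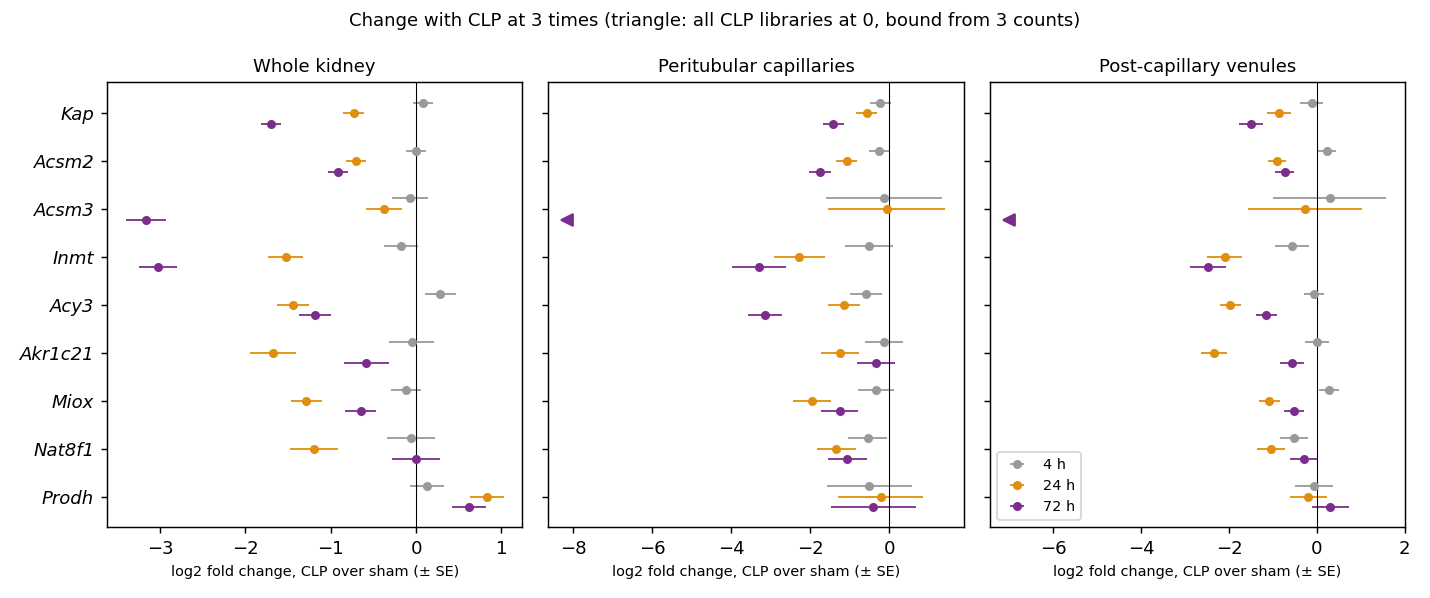
CLP over sham log2 fold change (± SE) of the 9 genes at 4, 24 and 72 h in whole kidney, peritubular capillaries and post-capillary venules. Grey points for 4 h lie near 0, most orange and purple points for 24 and 72 h lie left of 0, and triangles give the bound for Acsm3, whose CLP libraries at 72 h were at 0 in both microdissected compartments.

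For Akr1c21, a gene chosen here after its values were seen, mice of the CLP group at 24 h kept nearly the same order across compartments. Mouse 4 of that group had the lowest Akr1c21 in whole kidney (129 CPM), capillaries (341), venules (109) and glomeruli (24.5). In arterioles mice 3 and 4 had 1 count each (0.0664 and 0.0636 CPM), a tie set apart only by library size. Mouse 1 had the highest in all 5, from 224 in arterioles to 940.3 in capillaries. Mouse 4 also had the lowest Nat8f1 in 4 compartments, arterioles being tied at 0. In whole kidney the same mouse had the highest levels of 3 injury transcripts: Havcr1 was at 1.5, 4.67, 6.1 and 30.5 CPM in the 4 mice, Lcn2 at 148, 193, 397 and 643 and Spp1 at 409, 415, 570.4 and 994, with mouse 4 last in each. The proximal tubule marker sum moved with Akr1c21 too, at 10312 CPM in whole kidney of mouse 4, 15339.7 in mouse 2, 17313 in mouse 3 and 22153 in mouse 1. The part of injury or of the marker sum in the Akr1c21 level was not tested. Mouse 4 was lowest in 3 compartments for Miox and for Acsm3, which had ties at 0 in arterioles and glomeruli. It was lowest in 2 for Acsm2, Inmt and Prodh, 1 for Kap and 0 for Acy3. In whole kidney it was lowest for Acsm2, Acsm3, Inmt, Akr1c21, Miox and Nat8f1, and not for Kap, Acy3 or Prodh.

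**Figure D5:**
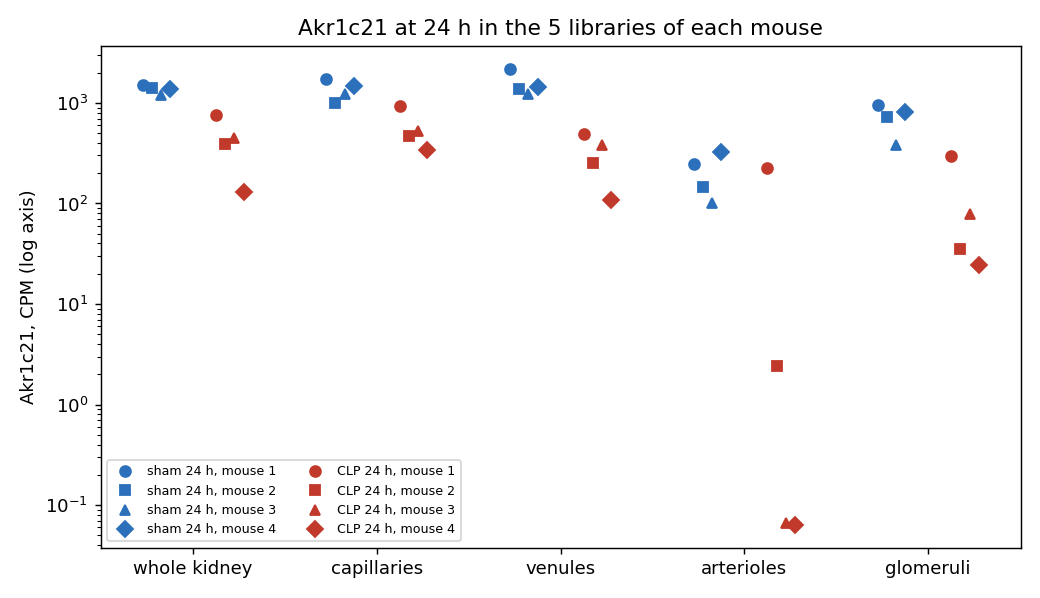
Akr1c21 (CPM, log axis) at 24 h in the 5 libraries of each sham (blue) and CLP (red) mouse, 1 symbol shape per mouse within a group. CLP mouse 1 (circle) is the highest of the red symbols in each compartment. CLP mouse 4 (diamond) is the lowest, though in arterioles it and CLP mouse 3 had 1 count each.

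Across the 28 whole kidney libraries the members other than Prodh and Nat8f1 mostly moved together. The 28 pairs among the 8 members without Prodh had a median Pearson r of 0.696 on log2(CPM + 1), from −0.25 to 0.95. Nat8f1 had r of 0.77 with Akr1c21 and 0.54 with Miox, but −0.25 to 0.26 with Kap, Acsm2, Acsm3, Inmt and Acy3. Prodh had a negative r with all 8, from −0.62 to −0.19. These are descriptions, since the points share group and library and hold the CLP difference that chose the genes. Over the 16 libraries without CLP the same 28 pairs had a median r of 0.09, from −0.74 to 0.78, with 12 below 0, and Prodh had a positive r with 6 of the 8, from −0.23 to 0.59. For Kap and Acsm2, r was 0.80 over 28 libraries and 0.08 over the 16 without CLP. Of 10361 genes averaging 5 CPM or more, the most like Kap was Mep1a, a brush border protease (r = 0.926), followed by Tmigd1 (0.922) and Slc22a7 (0.914). For Acsm2 they were Gm48281 (0.941), Kif20b (0.94) and Ces1f (0.923). For Acsm3 they were Pank1 (0.942), Pzp (0.941) and Slco1a1 (0.94), and for Inmt Gm48281 (0.935), Serpinf2 (0.935) and Ace (0.925). Cndp2, the dipeptidase of the mercapturate list, led for Acy3, which had Cndp2 (0.94), Serpinf2 (0.935) and Kif20b (0.93). For Akr1c21 they were St8sia1 (0.927), Gcnt1 (0.922) and Hsd3b2 (0.916). Miox had the highest r of all, with Pde6a (0.965), Car4 (0.938) and Gm11619 (0.92), and for Nat8f1 they were Hsd3b9 (0.89), B3gat2 (0.878) and Slc5a11 (0.871). Prodh had the lowest, with Fcgr3 (0.777), Asl (0.767) and Spn (0.761), of which Fcgr3 is an Fc receptor of leukocytes and Asl a urea cycle enzyme.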

How the data were processed

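RNA was measured in 140 QuantSeq libraries of 28 mice. The authors deposited unnormalised counts of reads for each of 34255 genes. The builds GRCm38.p6 and GRCm39, the aligner STAR 2.7, featureCounts, HTSeq 0.13, SAMtools 1.9 and the quality tools MultiQC 1.7 and FastQC 0.11.8 are named in the submitters' processing notes. Which build and counter made the table, whether counting used strand and whether duplicates were removed are not given in the sources used here. A count table of 3′ reads without molecular identifiers counts reads, not molecules, so floors (3 counts per library) cover counting error only. The table's hours row differed from the labels for the 20 healthy libraries, and the labels were used.

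The members, gene lists and comparisons were chosen with earlier results of these data known. Counts were fitted in R 4.3.3 with edgeR 4.0.16 (quasi-likelihood test, robust, TMM scaling, filterByExpr by group with a minimum count of 10), two-sided, on the 28 libraries of each compartment. Healthy compartments were fitted on 20 libraries with the mouse as a block. Adjusted p-values are Benjamini-Hochberg values over all genes tested, called under 0.05, and the fitting function was tested on simulated data. Values of p for CLP against sham at 24 and 72 h are not given for members. CPM are counts scaled to a common TMM-adjusted library total. Healthy compartment levels use the scaling of the 20-library fit and so differ slightly from the values by group. Replicates are separate mice, and a replicate number was not taken to link mice of different groups. All 9 members are named; of each list reported, up to 4 passing genes with the largest change per time in whole kidney; and the 3 genes most like each member over 28 whole kidney libraries. Nat8, Prodh2, Acy1 and Aspa were named in addition after their values were seen. Results of 1 list, and of some genes of the others, are not reported here. Alternatives were DESeq2 1.42.0, RLE factors, library totals, no filter, only the groups compared, a replicate block and leaving out each mouse. Promoters came from RefSeq (GRCm38.p6), positions from GENCODE M21, and 3′ ends were compared with blastn 2.17.0.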

Additional observations from a re-analysis of the deposited data

Results flagged for a closer look

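In 27 of 308 groups of 4 mice (a gene in 1 compartment and condition), 1 mouse lay far from the other 3 by Dixon's ratio. Chance flags about 1 in 20 groups of normally distributed values. The ratio was taken on unlogged CPM, which need not be so distributed, so no excess is read from the count. The flagged groups numbered 9 in arterioles, 5 in capillaries, 5 in glomeruli, 3 in venules and 5 in whole kidney. Values are CPM.

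In whole kidney, Acy3 in the CLP 72 h group was high in mouse 3, at 2378, with the others from 1062 to 1284. Inmt in the CLP 4 h group was high in mouse 3, at 903, with the others from 765 to 784. Inmt in the CLP 72 h group was high in mouse 3, at 146, with the others from 76.95 to 84.3. Kap in the CLP 4 h group was high in mouse 2, at 43288, with the others from 30762 to 31472. Prodh in the sham 4 h group was low in mouse 2, at 92.7, with the others from 126 to 130.1.

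In capillaries, Acsm2 in the CLP 72 h group was low in mouse 1, at 1004, with the others from 2213 to 2301. Acy3 in the sham 72 h group was high in mouse 1, at 4651, with the others from 2857 to 3156. Miox in the sham 4 h group was high in mouse 1, at 3322, with the others from 1653 to 1776. Nat8f1 in the CLP 24 h group was high in mouse 1, at 1892, with the others from 79.4 to 374. Nat8f1 in the sham 72 h group was high in mouse 2, at 2949, with the others from 1756 to 1917.

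In venules, Acsm2 in the sham 72 h group was low in mouse 3, at 2465, with the others from 4172 to 4476. Acsm3 in the sham 72 h group was high in mouse 1, at 137, with the others from 2.86 to 18.5. Miox in the sham 72 h group was high in mouse 3, at 3228, with the others from 2134 to 2299.

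In glomeruli, Acsm2 in the healthy group was high in mouse 4, at 1718, with the others from 714 to 864. Acsm3 in the healthy group was high in mouse 4, at 32.5, with the others from 1.05 to 3.75. Acsm3 in the sham 24 h group was high in mouse 4, at 9.71, with the others from 0 to 1.58. Nat8f1 in the sham 4 h group was high in mouse 2, at 396, with the others from 173 to 202. Prodh in the CLP 24 h group was high in mouse 3, at 381, with the others from 68.5 to 92.98.

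In arterioles, Acsm3 in the sham 4 h group was high in mouse 2, at 22.1, with the others from 1.09 to 2.14. Acsm3 in the sham 72 h group was high in mouse 2, at 58.7, with the others at 0. Acy3 in the CLP 24 h group was low in mouse 2, at 15.3, with the others from 116 to 137. Acy3 in the CLP 72 h group was high in mouse 3, at 135, with the others from 0.209 to 5.67. Akr1c21 in the CLP 24 h group was high in mouse 1, at 224, with the others from 0.0636 to 2.41. Kap in the healthy group was high in mouse 4, at 13025, with the others from 5633 to 6518. Miox in the sham 4 h group was high in mouse 2, at 461, with the others from 167 to 179. Nat8f1 in the CLP 24 h group had 1 count in mouse 3, at 0.0664, with the others at 0. Prodh in the sham 24 h group was high in mouse 2, at 2.94, with the others from 0 to 0.432.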

How the results depend on the processing

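No alternative turned the direction of a called result. At 4 h the count of members called over the 5 compartments was 0 for CLP against sham and for sham against healthy under every alternative run, the replicate block and each left-out mouse included. Healthy compartments gave 42 to 51 calls without 1 mouse and 52 with no replicate block, against 56. In whole kidney 7 members were lower at 24 h without any 1 mouse, and 5 to 6 at 72 h.

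Counts in microdissected compartments depended on the setting. At 24 h, members lower in venules (4) became 7 with DESeq2 and 2 with only the groups compared or with the replicate block, and 2 to 4 without 1 mouse. In capillaries (0) they became 1 with DESeq2 and 1 with the replicate block, and 0 to 1 without 1 mouse. At 72 h in capillaries (6) they became 3 with only the groups compared and 3 with the replicate block, and 5 to 6 without 1 mouse. At 72 h in venules (4) they became 2 with library totals, 0 with only the groups compared, 0 with the replicate block (DESeq2 gave 5), and 1 to 4 without 1 mouse, the count of 1 being without sham mouse 1. The cause was not tested, but fits on only the groups compared rest on 8 libraries. DESeq2 also called more of all genes lower: 453 in venules at 24 h, 457 in venules at 72 h and 1159 in capillaries at 24 h. With edgeR these numbers were 8, 4 and 2.

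In whole kidney at 24 h Akr1c21 (−1.67), Nat8f1 (−1.19) and Prodh (0.82) were not called with only the groups compared, nor were Akr1c21 and Nat8f1 with the replicate block (−1.90 and −1.34), and Akr1c21 (−0.60) and Prodh (0.60) were then called at 72 h. With the replicate block 5 members were lower at 24 h and 7 at 72 h. Miox at 72 h was not called with library totals (−0.57). At 4 h the replicate block gave 1 member with an unadjusted p under 0.05 for CLP against sham and 6 for sham against healthy. Replicate numbers were not taken to pair mice, since not every same-numbered pair had residuals correlated over 0.1. In whole kidney 3 of 4 pairs did at 24 h (r from 0.086 to 0.67) and 2 of 4 at 72 h (0.044 to 0.573), and 0 did elsewhere. These correlations do not show that same-numbered mice were unlinked, and a link was not tested further. Precision was set by spread between the libraries of a group, each from another mouse. The biological coefficient of variation was 0.241 in whole kidney and 1.40 to 1.94 in the microdissected compartments. The parts of mice, dissection and library preparation in this spread were not tested.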
